A study of Mus musculus with 6 samples.

Results

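The BCL2 family genes were examined in DN3 thymocytes, an early stage of T cell development in the thymus at which cells must make a working pre-T cell receptor to go on. The 10 genes were Bcl2, Bcl2l1, Mcl1, Bcl2l11, Bbc3, Pmaip1, Bax, Bak1, Bad and Bid. Every probe whose name in the deposited probe table equals, ignoring case, one of these symbols or an older symbol of it was taken, which gave 23 of 45281 probes in a table of 30774 distinct names. Of these, 2 carry D630044D05RIK, an older name of Bcl2, and the other 21 carry the current symbols. RNA came from 3 wild-type (WT) and 3 miR-185 Tg samples, all on the C57BL/6 strain. The transgenic mice carry a miR-185 transgene, and the study looked for its targets. Both groups were sorted from thymus as CD44- CD25+ cells that lacked CD4, CD8, B220, NK1.1, the gamma-delta T cell receptor, CD11b and CD11c. The sources used here do not give the promoter of the transgene, the age of the mice or whether a sample held 1 mouse or a pool.

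The 6 samples were run on a single Illumina MouseWG-6 v2.0 chip, 1 array each. Per array, 39.5% to 41.8% of probes were detected, with a median of 41 to 42 beads per probe. The number of arrays limits the precision, and since the labels do not tie samples to separate mice, the p-values reflect only how these samples differ, and that spread could be technical. All 15 markers of DN3 and T lineage cells, such as Il2ra and Ptcra, were detected on all 6 arrays. Their summed log2 level was 16.29 to 16.44 in WT and 16.76 to 16.84 in Tg. The brightest markers weigh most in this sum. Single markers went both ways (log2, Tg minus WT), but those with an adjusted p under 0.05 (limma) were all higher in Tg. They were Il2ra (1.55, adjusted p = 0.019), Dtx1 (2.55, 0.019), Cd3g (0.72, 0.029) and Cd3d (0.58, 0.037). Rag1 (-0.64), Rag2 (-0.26), Bcl11b (-0.13) and Gata3 (-0.071) were lower, with adjusted p from 0.41 to 0.88 (limma). Whether the groups were matched in stage was not tested. The arrays did not vary equally. WT 2 and WT 3 correlated across probes at r = 0.996 (probes are not replicates), and Tg 2 scored 79.9 on the first principal component against -27.4 to 4.0 for the other 5 arrays. The values of the tested probes without Tg 2 are given where they move a call or move the difference by over 1.5 times. In bulk RNA, fewer cells with a transcript and less transcript per cell cannot be told apart.

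As background, BCL2 family proteins set whether the outer membrane of the mitochondrion stays closed. BCL2, BCL-XL (from Bcl2l1) and MCL1 keep it closed by holding the other members. BAX and BAK (from Bak1) open it, and the BH3-only proteins BIM (Bcl2l11), PUMA (Bbc3), NOXA (Pmaip1), BAD and BID start the process by binding the protectors or the openers. In the thymus, MCL1 and interleukin-7 signals are known to keep early thymocytes alive, and BIM is known for removing cells that fail selection.

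The agent that differs between the groups is miR-185. Its hairpin and the annotated mature 3p strand are shown from RefSeq (GRCm38.p6), since the arrays do not measure them. The strand on the opposite side of the hairpin is left unmarked and its seed is not shown. Which strand is active in these cells was not tested, so the seed shown is that of the 3p strand only. In the hairpin, at chr16:18327401-18327465 on the minus strand, capitals mark the 3p strand. In the mature sequence they mark the seed, bases 2 to 8.
Mir185: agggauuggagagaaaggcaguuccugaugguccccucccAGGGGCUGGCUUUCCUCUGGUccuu
mmu-miR-185-3p: aGGGGCUGgcuuuccucuggu

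Promoter windows, 250 bases before to 50 after an annotated start (RefSeq, GRCm38.p6), were taken for 9 of the 10 genes, 15 windows in all. Pmaip1 was left out, and its promoter was not searched. A window of each of 4 genes with higher values in every Tg sample is shown, so that the letters can be read beside the values. Each is the first window of its gene that holds the motif marked in it, so the presence of that motif was fixed by the choice. Bcl2 lies at chr1:106714241-106714540 (minus strand), Mcl1 at chr3:95658471-95658770, Bcl2l11 at chr2:128125788-128126087 and Bbc3 at chr7:16310011-16310310 (plus strand). Capitals mark GGGCGG in Bcl2, CCGGAAG in Mcl1 and GTAAACA in Bcl2l11 and Bbc3, on either strand.
Bcl2: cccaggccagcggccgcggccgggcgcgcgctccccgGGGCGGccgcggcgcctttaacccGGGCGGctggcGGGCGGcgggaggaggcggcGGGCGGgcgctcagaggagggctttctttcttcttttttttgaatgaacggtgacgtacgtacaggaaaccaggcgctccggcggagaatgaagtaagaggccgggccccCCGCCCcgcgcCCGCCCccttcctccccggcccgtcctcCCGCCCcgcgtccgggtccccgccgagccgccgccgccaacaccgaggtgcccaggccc
Mcl1: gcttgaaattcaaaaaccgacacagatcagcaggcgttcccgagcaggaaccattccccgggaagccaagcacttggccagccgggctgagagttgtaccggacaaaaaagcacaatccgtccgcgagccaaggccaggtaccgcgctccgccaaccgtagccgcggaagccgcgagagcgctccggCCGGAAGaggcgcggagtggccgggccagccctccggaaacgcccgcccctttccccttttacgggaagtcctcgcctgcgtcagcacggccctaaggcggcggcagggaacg
Bcl2l11: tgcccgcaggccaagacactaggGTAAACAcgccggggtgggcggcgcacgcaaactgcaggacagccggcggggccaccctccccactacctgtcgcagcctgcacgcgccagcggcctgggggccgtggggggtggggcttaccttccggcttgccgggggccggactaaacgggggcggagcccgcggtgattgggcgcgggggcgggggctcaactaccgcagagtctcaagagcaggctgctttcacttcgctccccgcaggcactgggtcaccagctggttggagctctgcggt
Bbc3: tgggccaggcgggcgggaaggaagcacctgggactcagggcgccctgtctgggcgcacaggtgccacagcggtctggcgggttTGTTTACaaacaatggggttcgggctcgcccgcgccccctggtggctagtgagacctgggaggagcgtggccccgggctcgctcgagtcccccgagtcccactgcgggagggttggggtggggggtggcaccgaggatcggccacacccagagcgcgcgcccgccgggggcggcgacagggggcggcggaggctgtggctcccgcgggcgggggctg

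In these windows 7 motifs were searched on both strands, and no match of one overlapped a match of another. GTAAACA, the core that FOXO factors bind, was in 2 of the 15 windows, 1 of Bcl2l11 and 1 of Bbc3. It was in 3.65% of all 32851 windows searched, which do not cover every gene. It began 227 bases before a start of Bcl2l11, and its reverse complement began 167 bases before a start of Bbc3. The windows at the other starts of both genes held no match to it. GGGCGG, the GC box, was in 10 windows of these genes and in 35.7% of all, with 7 copies in Bcl2. CCGGAAG, an ETS motif, was in 3 and in 8.86%, and the E-box CACGTG in 2 and in 7.15%. TTCNNNGAA (STAT), the interferon response motif (GAAA, NN and GAAA in a row) and TGACGTCA (CRE) were in 0 of the 15, and in 8.3%, 3.44% and 1.79% of all windows. These matches describe letters only.

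Values are normalised log2 intensities unless the deposited intensity is named, and differences are Tg minus WT on that scale. A probe was tested where its detection p was under 0.05 on at least 3 of the 6 arrays. Of the 23 probes 19 were, at least 1 for each of the 10 genes, and 2 of the 19, one of Pmaip1 and one of Bcl2l11, met this through the Tg arrays only. A probe was called at an adjusted p under 0.05 (limma, Benjamini-Hochberg over 18597 probes). Of the 19, 1 was called, a probe of Bcl2, against 3.3% of all tested probes. It was higher in Tg, as were 1.93% of all, and 0 of the 19 were called lower (limma; 0 also at an unadjusted p under 0.05), against 1.38%. At an adjusted p under 0.1, 5 of the 19 passed, all higher in Tg, against 7.01% of all tested probes in either direction and 3.8% higher. One of the 5 is the Pmaip1 probe seen only in Tg. Of the 13 detected on all 6 arrays 4 passed that threshold, against 6.93% of such probes. Without Tg 2, 5 of the 19 were called, against 11.5% of all tested probes, and without Tg 3, 3 were, against 4.43%. Without WT 1, WT 2, WT 3 or Tg 1, 0 were called, against 0.0161% to 0.0645% of all.

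Among the protectors, Bcl2 was higher in every Tg sample at both of its tested probes. Probe 5570358 had values of 6.32, 7.13 and 7.04 in WT 1, 2 and 3 and of 7.95, 8.20 and 8.38 in Tg 1, 2 and 3. The deposited intensities behind them were 175.1, 219.6 and 212.1 in WT and 364.1, 399.3 and 357.9 in Tg. The groups did not overlap, and the lowest value was that of WT 1. Bcl2 rose at this probe by 1.35 ± 0.29 (SE), or 2.54-fold, with an adjusted p of 0.049 (limma). The call held without Tg 2 (1.32, adjusted p = 0.033) and was lost when any other single array was left out, with adjusted p from 0.072 without Tg 3 to 0.20 without WT 3, while the difference stayed between 1.09 and 1.51. With WT 2 and WT 3 averaged as 1 sample it was 1.48 (adjusted p = 0.18).

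The brighter Bcl2 probe, 6420612, had values of 7.82, 8.36 and 8.32 in WT 1, 2 and 3 and of 9.14, 8.64 and 9.18 in Tg 1, 2 and 3. Again WT 1 was lowest and the groups did not overlap. The difference was 0.82 ± 0.25 (SE; adjusted p = 0.13, limma), and it passed without Tg 2 (0.98, adjusted p = 0.028). It did not pass without WT 1, WT 2, WT 3 or Tg 1. The remaining 2 probes of Bcl2, both under the older name, were detected on 1 and 0 of the 6 arrays and had deposited intensities of 94.7 to 114.2, so they were not tested.

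Mcl1, a short-lived protector, has 1 probe, detected on all arrays. Its values were 10.79, 11.23 and 11.27 in WT 1, 2 and 3 and 11.96, 12.18 and 11.70 in Tg 1, 2 and 3. The deposited intensity ran from 2109.3 to 2376.0 in WT and was 3963.0, 5906.9 and 2787.9 in Tg 1, 2 and 3. Every Tg value lay above every WT value, with Tg 2 highest. The difference was 0.84 ± 0.19 (SE), or 1.80-fold, with an adjusted p of 0.058 (limma), and the 95% interval ran from 0.40 to 1.29. It passed without Tg 2 (0.71, adjusted p = 0.045) and without Tg 3 (0.96, adjusted p = 0.038). It did not pass without WT 1, WT 2, WT 3 or Tg 1.

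Bcl2l1, which encodes BCL-XL, did not share this pattern. Its brightest probe, 1240546, had values of 5.90, 6.58 and 6.54 in WT 1, 2 and 3 and of 6.61, 7.64 and 5.98 in Tg 1, 2 and 3. Tg 2 was highest and Tg 3 lay within the WT range. The difference of 0.41 ± 0.43 (SE; adjusted p = 0.67, limma) went to -0.041 without Tg 2. The other 2 probes had differences of -0.16 (95% interval -0.73 to 0.40) and -0.014 (95% interval -0.89 to 0.86), which were -0.40 and -0.49 without Tg 2.

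**Figure D1:**
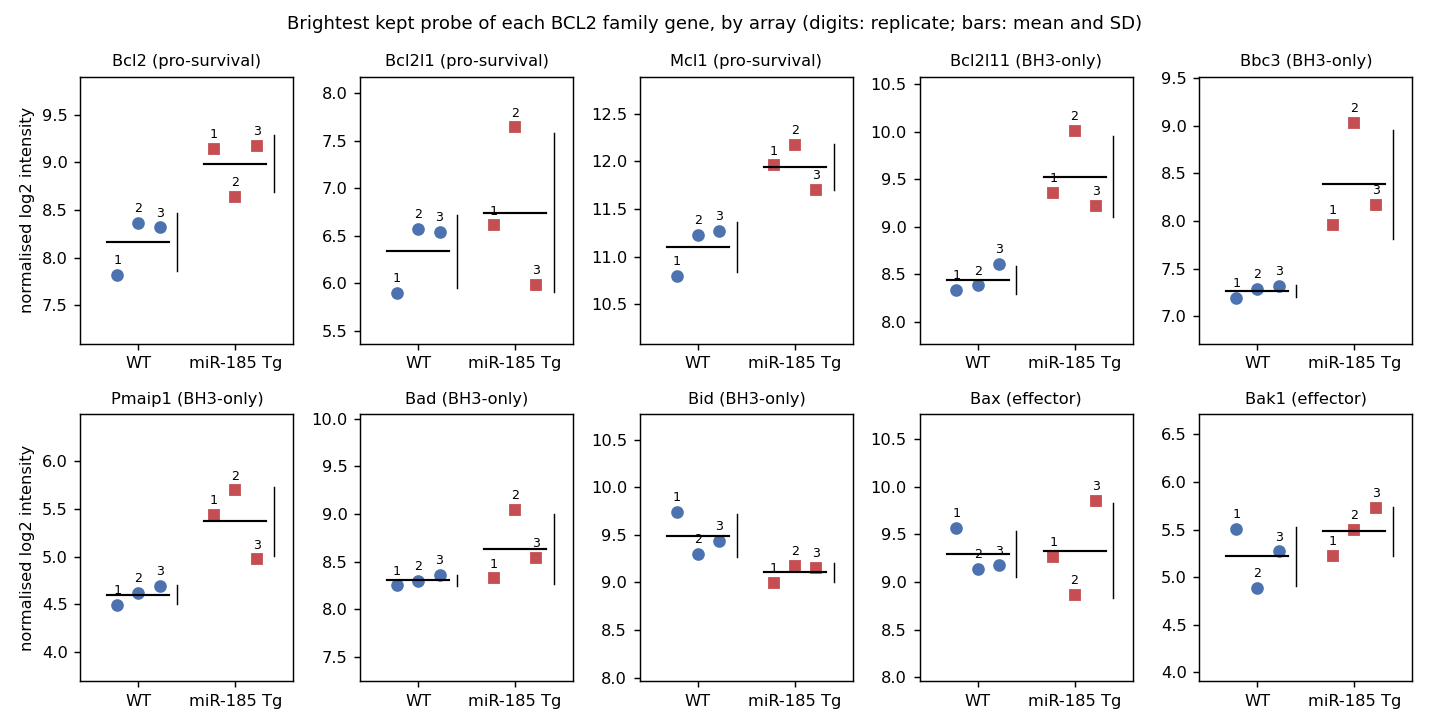
Normalised log2 intensity (y axis, with panels of equal span) of the brightest tested probe of each gene in the 3 WT (circles) and 3 miR-185 Tg arrays (squares); digits give the replicate, horizontal bars the mean and vertical bars the SD. The groups do not overlap for Bcl2, Mcl1, Bcl2l11, Bbc3 and Pmaip1, with Tg above WT, and for Bid, with Tg below WT.

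Among the BH3-only genes, Bcl2l11 and Bbc3 had the 2 largest differences. Bcl2l11 encodes BIM. Its brightest probe, 5820168, had values of 8.34, 8.38 and 8.61 in WT 1, 2 and 3 and of 9.35, 10.01 and 9.22 in Tg 1, 2 and 3. The groups did not overlap, and the Tg values were more spread (SD 0.42, against 0.15 in WT, n = 3 each). The difference was 1.08 ± 0.25 (SE), or 2.12-fold, with an adjusted p of 0.063 (limma). It passed without Tg 2 (0.83, adjusted p = 0.022) and without Tg 3 (1.24, adjusted p = 0.044). It did not pass without WT 1, WT 2, WT 3 or Tg 1.

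The probes of Bcl2l11 disagreed in size. Probe 1780735 had values of 6.03, 6.74 and 6.90 in WT 1, 2 and 3 and of 7.46, 8.43 and 6.50 in Tg 1, 2 and 3, so that Tg 3 fell within the WT range (difference 0.91, adjusted p = 0.37, limma). Without Tg 2 its difference was 0.42. Probe 2360689 had a difference of 0.10 (95% interval -0.54 to 0.74), and of -0.18 without Tg 2. Probe 4060747 was detected on 3 Tg arrays and 0 WT arrays. For an estimate, each WT signal was raised to the lowest detected signal of its array where it was lower. The Tg mean was then 1.17-fold the WT mean. The 95% interval of the measured difference was -0.014 to 0.86 (adjusted p = 0.28, limma), so 1.17 is not a lower bound.

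Bbc3 encodes PUMA, a target of p53 and of FOXO factors. Probe 450615 had values of 7.19, 7.29 and 7.32 in WT 1, 2 and 3 and of 7.96, 9.03 and 8.16 in Tg 1, 2 and 3. The deposited intensities were 245.6, 234.9 and 238.6 in WT, a narrow range, and 365.9, 661.7 and 320.1 in Tg. Every Tg value lay above the WT values, and Tg 2 was highest. The difference was 1.12 ± 0.31 (SE), or 2.18-fold, with an adjusted p of 0.097 (limma). Without Tg 2 it was 0.79 and passed (adjusted p = 0.031), while it did not pass without WT 1, WT 2, WT 3 or Tg 1. The other 2 probes of Bbc3 were dim, with deposited intensities of 103.9 to 122.5, and had differences of 0.23 and 0.18 (adjusted p = 0.47 and 0.63, limma), which were 0.13 and 0.32 without Tg 2.

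Pmaip1 encodes NOXA, which binds MCL1. Its brightest probe, 5130367, was dim: values were 4.49, 4.61 and 4.69 in WT 1, 2 and 3, not detected on any WT array, and 5.44, 5.70 and 4.97 in Tg 1, 2 and 3, detected on each. With its WT signals raised to the lowest detected ones as for Bcl2l11, the Tg mean was 1.62-fold the WT mean. The measured difference was 0.77 (95% interval 0.30 to 1.24, adjusted p = 0.089, limma), so 1.62 is not a lower bound. Without background correction the difference was 0.22. A second probe was detected on 1 WT and 2 Tg arrays and its groups overlapped (difference 0.27, adjusted p = 0.55, limma, and 0.10 without Tg 2), and the last of its 3 probes was detected on 0 arrays.

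Bad, which binds BCL2 and BCL-XL, had values of 8.25, 8.29 and 8.36 in WT 1, 2 and 3 and of 8.32, 9.04 and 8.54 in Tg 1, 2 and 3. Tg 1 lay within the WT range. The difference was 0.33 ± 0.24 (SE; adjusted p = 0.52, limma), and 0.13 without Tg 2.

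Bid, which links death receptors to the mitochondrion once cleaved, ran the other way. Probe 5700575 had values of 9.74, 9.30 and 9.43 in WT 1, 2 and 3 and of 8.99, 9.17 and 9.15 in Tg 1, 2 and 3. Every Tg value lay below every WT value, and the difference was -0.38 ± 0.20 (SE; adjusted p = 0.34, limma). The gene's other probe was detected on 1 array of each group and was not tested.

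The 2 effectors did not pass. Bax had values of 9.57, 9.14 and 9.17 in WT 1, 2 and 3 and of 9.27, 8.87 and 9.85 in Tg 1, 2 and 3, with the highest and the lowest value both among the Tg arrays. Its difference was 0.035 (95% interval -0.61 to 0.68), and it was -0.040 without WT 2, -0.027 without WT 3, 0.26 without Tg 2 and -0.23 without Tg 3. Bak1 was dim, with values of 4.89 to 5.50 in WT and 5.22 to 5.73 in Tg, and had a difference of 0.26 (95% interval -0.26 to 0.78; adjusted p = 0.60, limma), which was 0.094 without WT 2 and 0.14 without Tg 3. These intervals do not show that the effectors were equal in the 2 groups.

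**Figure D2:**
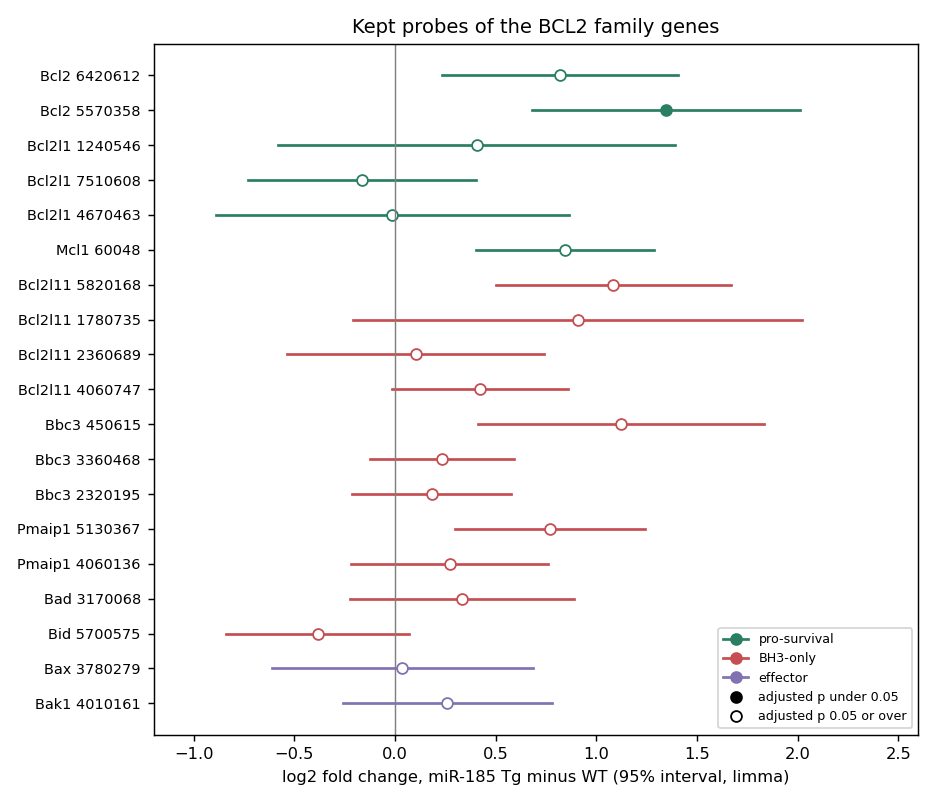
Log2 fold change, miR-185 Tg minus WT (x axis), of the 19 tested probes with 95% intervals from limma, by gene and probe and coloured by role; a filled point has an adjusted p under 0.05. Probe 5570358 of Bcl2 is the 1 filled point, at 1.35, and Bid has the lowest value, -0.38.

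Set against each other by role, protectors and death genes both leaned to higher values in Tg. Of 6 tested probes of the protectors 4 had positive differences, with a median of 0.61 and a range from -0.16 to 1.35. Of 13 tested probes of the death genes 12 were positive, with a median of 0.27 and a range from -0.38 to 1.12. Over all 18597 tested probes 48.2% were positive and the median was -0.017. Since a probe seen only in Tg had to be higher there, the counts were also taken over the 13 probes detected on all 6 arrays, which are 5 of the protectors, with a median of 0.82, and 8 of the death genes, with a median of 0.30. Of these 13, 11 were positive, against 47.9% of the 15172 such probes. The ranges of the roles overlapped, and no p-value is given for a score over genes chosen with results known. Without Tg 2 the medians over the tested probes were 0.33 and 0.26. The gap between the roles depended on the settings. Over all 23 probes, dim ones included, the medians were 0.25 for the protectors and 0.26 for the death genes. Without background correction they were 0.45 and 0.083, and with an offset of 50 they were 0.53 and 0.14.

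Every Tg value lay above every WT value at 7 of the 19 probes, 3 of the protectors and 4 of BH3-only genes, against 13.4% of all tested probes. Over probes detected on all 6 arrays it was 5 of 13, against 14%. Every Tg value lay below every WT value at 1 of the 19, that of Bid, against 13.7%. At an unadjusted p under 0.05 (limma) 6 of the 19 were higher and 0 lower, against 9.48% and 9.38%. Over the 13 detected on all 6 arrays 5 were higher, against 9.72%. For each of the 8 probes without overlap, permuting the 3 and 3 samples (exact, two-sided) gave p = 0.1, which is as low as this design can go. With 1 probe per gene, as a coarser unit, 0 of the 10 genes passed in limma, against 4.23% of 12426 genes, and 5 of them, Bcl2, Mcl1, Bcl2l11, Bbc3 and Pmaip1, had an unadjusted p under 0.05 and were higher, against 11.1% of these genes. Of the 5, Pmaip1 was tested through its Tg arrays only.

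**Figure D3:**
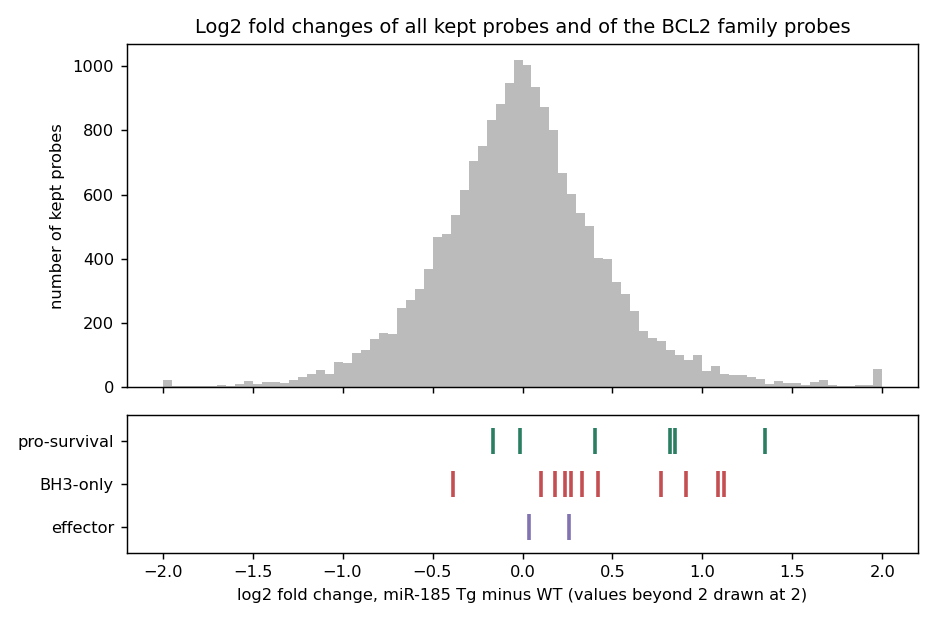
Number of tested probes (y axis, upper panel) by log2 fold change, miR-185 Tg minus WT (x axis, bins of 0.05, values beyond 2 drawn at 2), with the 19 probes of the BCL2 family genes as ticks by role in the lower panel. Ticks of protectors and of BH3-only genes spread over the same range, mostly to the right of 0.

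The standard error between the beads of 1 array, on the deposited intensities before background correction, was at most 0.13 on the log2 scale for any of the 23 probes. Across the 6 arrays, some of these genes varied together. Over the brightest probes, Bcl2l11 correlated with Bbc3 at r = 0.977, with Pmaip1 at 0.967 and with Mcl1 at 0.953, while Bid correlated with Bcl2 at -0.933 and Bax with Bcl2l1 at -0.890. These are descriptions over 6 arrays that share the group difference and the place of Tg 2. Tg 2 had the highest value of the 6 arrays at the brightest probes of Mcl1, Bcl2l11, Bbc3, Pmaip1, Bad and Bcl2l1. Of the 5 genes whose Tg values all lay above WT, Bcl2 alone had its lowest Tg value on that array.

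**Figure D4:**
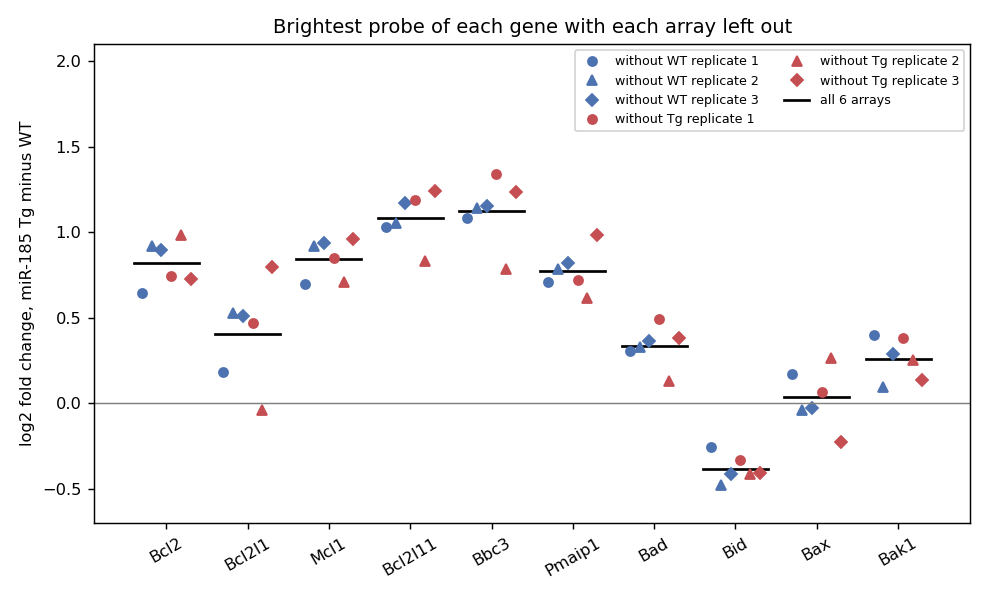
Log2 fold change, miR-185 Tg minus WT (y axis), of the brightest tested probe of each gene over all 6 arrays (black lines) and with 1 array left out (symbols, blue for WT and red for Tg). Leaving out Tg 2 gives the lowest value for Bcl2l11, Bbc3, Pmaip1, Bad and Bcl2l1, and the highest for Bcl2 and Bax.

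Genes whose profile over the 6 arrays was most like that of a member were ranked by Pearson's r. For Bcl2 (probe 6420612) they were Cd27, a costimulatory receptor gene (0.993), Smyd3, a methyltransferase gene (0.988), and Asah1, acid ceramidase (0.988). Those of Mcl1 were Sema4a, a semaphorin gene (0.998), Btg1, which restrains proliferation (0.997), and Sh3bgrl3 (0.997). Bcl2l11 was closest to Guca1a (0.998), Spink2 (0.998) and Relb, an NF-kappaB subunit gene (0.995), and Bbc3 to Tgif1, a homeobox repressor gene (0.999), Pef1 (0.999) and Rab43 (0.998). Over 6 arrays such values are common, since 87 to 448 tested probes passed 0.95 for each of the 4 genes.

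Other genes of the pathway were taken from lists, with the brightest tested probe of each gene. The shares of all tested probes set beside them count every probe. At 1 probe per gene, 4.23% of 12426 genes were called (limma), and 11.1% were higher at an unadjusted p under 0.05. Of 17 further BCL2 family genes 10 were tested and 0 passed (limma), against 3.3% of all tested probes. At an unadjusted p under 0.05, 2 were higher and 2 lower, against 9.48% and 9.38% of all tested probes. The median difference was 0.033. Bmf, a BH3-only gene, had values of 6.71, 7.37 and 7.24 in WT 1, 2 and 3 and of 8.19, 8.10 and 7.86 in Tg 1, 2 and 3, without overlap (difference 0.95, adjusted p = 0.095). Bcl2l2, which encodes the protector BCL-W, also did not overlap (0.57, adjusted p = 0.20). The protector gene Bcl2a1d was detected on 3 WT and 0 Tg arrays, so it was tested through its WT arrays only. With its Tg signals raised to the lowest detected ones in the same way, it was 1.52-fold lower in Tg (adjusted p of the measured difference = 0.090, limma). Bcl2a1b had a difference of -0.62 (adjusted p = 0.25, limma). The copies of A1 are nearly alike in sequence, so these values are uncertain as to the copy. Both had their highest value in WT 3, where the neutrophil marker S100a8 was highest too (7.97, against 5.44 and 5.81 in WT 1 and 2, and not detected in Tg), and the part of neutrophils in the A1 values was not tested.

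Of 21 genes that act with the family at the mitochondrion 19 were tested and 0 passed (limma). Of the 19, 6 were positive, against 49.9% of all genes at their brightest probe. At an unadjusted p under 0.05, 0 were higher and 4 lower, against 9.48% and 9.38% of all tested probes. The median was -0.14. Among them were Vdac2, whose channel protein binds BAK (-0.61, adjusted p = 0.15), Opa1, which shapes the inner membrane (-0.62, 0.16), and Cycs, which encodes cytochrome c (-0.49, 0.25). The Tg and WT values of Vdac2 did not overlap, while those of Opa1 and Cycs did. Opa1 was dim, detected on 3 WT arrays and 1 Tg array, and was at -0.18 without background correction.

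Of 30 regulators 25 were tested, 1 fell (1.38% of all tested probes were called lower) and 24 did not pass. The median was -0.097. At an unadjusted p under 0.05, 3 were higher and 5 lower, against 9.48% and 9.38% of all tested probes. The 3 higher were Bag3 (1.21, adjusted p = 0.16, limma), Il2rg (1.07, 0.13) and Pim1 (0.97, 0.21). The 1 that fell was Dynll2, which encodes a dynein light chain known to hold BMF. It had values of 6.99, 7.16 and 7.28 in WT 1, 2 and 3 and of 6.01, 5.35 and 5.84 in Tg 1, 2 and 3, and fell by 1.41 ± 0.25 (SE; adjusted p = 0.031, limma). The call was lost without WT 1, WT 2, WT 3 or Tg 1 (adjusted p = 0.12, 0.16, 0.19 and 0.088). Il7r, the interleukin-7 receptor gene, had values of 9.70, 9.86 and 9.72 in WT 1, 2 and 3 and of 8.91, 8.55 and 9.30 in Tg 1, 2 and 3 (difference -0.84, adjusted p = 0.096, limma), and passed without Tg 2 (-0.64, adjusted p = 0.047) and without Tg 3 (-1.03, adjusted p = 0.043). Usp9x, whose product stabilises MCL1 protein, had a difference of -0.82 (adjusted p = 0.11, limma). It was dim, detected on 3 WT and 2 Tg arrays, and was at -0.255 without background correction. Beside the FOXO motif and the p53 targets, and chosen after their values were seen, Foxo1 had a difference of 0.32, Foxo3 of 0.041 and Trp53 of -0.024 (adjusted p = 0.58, 0.96 and 0.97). Foxo3 was at -0.23 without Tg 2, and Trp53 at 0.028 under median scaling and 0.022 under cyclic loess, but at -0.41 with array weights (adjusted p = 0.0072).

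Markers of other cells moved with the groups in part. Of 5 neutrophil markers, 5 were detected on a WT array and 0 on a Tg array, and their summed log2 level was 7.02 to 8.71 in WT and 6.56 to 6.61 in Tg. Of 3 measured NK cell markers, Nkg7 rose by 1.58 (adjusted p = 0.017, limma) and gave a summed level of 9.56 to 10.14 in WT and 11.29 to 11.77 in Tg, while the defining Ncr1 and Klrb1c were detected on 0 arrays. The summed level of 5 measured B cell markers was 11.57 to 11.92 in WT and 12.21 to 12.69 in Tg, most of it Ighm, with Pax5 detected on 0 arrays. The summed level of 5 myeloid markers was 7.22 to 7.89 in WT and 8.04 to 8.88 in Tg, with Itgam and Itgax detected on 0 arrays. The summed level of 4 red cell markers was 8.79 to 13.89 in WT and 9.99 to 11.07 in Tg. For 5 early progenitor markers it was 9.88 to 10.34 in WT and 9.29 to 10.18 in Tg. Among them Bcl11a was at -1.47 (adjusted p = 0.047, limma) and Spi1 at 0.32. For 5 measured later thymocyte markers it was 10.92 to 11.21 in WT and 10.58 to 11.42 in Tg, most of it Cd8b1. The part of these cells in the values of the BCL2 family genes was not tested.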

How the data were processed

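RNA from 3 WT and 3 miR-185 Tg samples, grouped by sample title, was measured on 1 chip. Per the file headers, the probe table was written by GenomeStudio 1.9.0 without normalization. The deposited table gives the mean bead intensity of each probe on a linear scale, the SD between beads, the bead count and a detection score. This deposited score is a fraction from 0 to 1, and 1 minus it served as the detection p-value. The sources used here do not say whether the authors subtracted background. The deposited series values are the log2 of a table of intensities averaged over the probes of a gene, not normalized between arrays.

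Intensities were corrected in limma's nec (normexp, with detection p-values and an offset of 16) and then quantile normalized, in limma 3.58.1 (R 4.3.3). The fit took the 18597 of 45281 probes that 3 or more arrays detected (detection p under 0.05) and was made with lmFit and eBayes (trend), with Benjamini-Hochberg adjustment over all of them. The fit was tested on simulated data. Names follow RefSeq for assembly GRCm38.p6, where 27400 probes matched a symbol, 8341 a synonym and 9540 kept the table's name. The members, lists and tests were chosen with earlier results of these data known. Named beside the members were, per list, each gene called and the 4 with the smallest unadjusted p, and for 4 members the 3 genes with the most similar profile, without predicted genes and clones. The 3 regulators higher at an unadjusted p under 0.05 were named as well. A few genes that this rule names are not reported here. Alternatives covered background correction, normalization, filter, variance model, array weights, a replicate block, arrays left out or averaged, the probe rule, the threshold and the deposited series values.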

Additional observations from a re-analysis of the deposited data

How the results depend on the processing

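Over 20 other settings the median ranged from 0.25 to 0.84 for the protectors and from 0.083 to 0.40 for the death genes. Between arrays of a group, the median level of the tested probes had an SD of 0.41 for the protectors and 0.29 for the death genes. These SDs are wide beside the main median differences of 0.61 and 0.27. They describe levels and do not measure how far a median difference moves between settings. The gap between the roles was gone without a filter (0.25 and 0.26), and the death genes' median was 0.083 without background correction, 0.14 with offset 50 and 0.15 with the authors' series values. The count of called probes over the whole table, 614 as reported, was 1303 at an adjusted p under 0.1, 7914 with array weights, 291 with the authors' series values, 354 under median scaling, 374 without a filter on dim probes, 284 with the replicate block, 3 with WT 2 and WT 3 averaged as 1 sample, and 3 to 2139 with 1 array left out. The count of called BCL2 family probes, 1 as reported, was 5 at the threshold of 0.1, 12 with array weights and 0 to 5 with 1 array left out (5 of 19 without Tg 2, against 2139 or 11.5% of all probes, 3 of 19 without Tg 3, against 823 or 4.43%, and 0 without WT 1, WT 2, WT 3 or Tg 1, against 9, 12, 3 and 12 of all). It was 0 with the series values, the brightest probe per gene, cyclic loess, median scaling, no filter, the replicate block and the averaged WT arrays, where limma's adjusted p of Bcl2 probe 5570358, if tested, was 0.057 to 0.18, and 6 probes had an unadjusted p under 0.05 as reported. The count of called genes in the other lists, 1 as reported, was 4 at the threshold of 0.1, 28 with array weights, 0 with the replicate block and the averaged WT arrays, and 0 to 8 with 1 array left out. All these counts take both directions together. The cause of these moves was not tested.

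Across these settings 14 values of the 19 probes changed sign, none of them of the called probe. With the probes of a gene averaged, 1 of the 10 genes was called, Mcl1 (adjusted p = 0.049). Bcl2l1 probe 4670463 was at 0.021 without background correction, 0.027 with offset 50, 0.032 with WT 2 and WT 3 averaged, and -0.49 to 0.25 with 1 array left out. Over its 16 settings it went as low as -0.502 and was called in 1 (adjusted p = 0.032, limma). Bid probe 5700575, lower in Tg in all 20 settings, was called in 1 (adjusted p = 0.011, limma). Bax was at -0.034 with the averaged WT arrays and -0.23 to 0.26 with 1 array left out. Bcl2l11 probe 2360689 was at -0.023 with array weights. With 1 array left out it ran from -0.18 to 0.32, Bcl2l1 probe 1240546 from -0.041 to 0.80 and Bcl2l1 probe 7510608 from -0.40 to 0.057. Of the other genes named, Foxo3 was at -0.24 with array weights and Trp53 at 0.028 and 0.022 under median scaling and cyclic loess. Trp53 was called with array weights (-0.41, adjusted p = 0.0072), and with 1 array left out Foxo3 and Trp53 ran from -0.23 to 0.20 and from -0.27 to 0.19.

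Deviations of same-numbered WT and Tg samples correlated over probes at r = -0.25, 0.15 and -0.26 for numbers 1, 2 and 3. WT 1 went best with Tg 3. With 3 samples per group, each centred on its group mean, these values cannot decide whether the numbers pair the samples. Probes near background, such as those of Pmaip1 and Bak1, are limited by their signal.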
